A study of Mus musculus with 5 samples.

Results

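The Acta2-high cells of skeletal muscle at d3 post-fracture were 341 of the 4907 filtered cells of that library, or 6.95% (95% exact binomial interval 6.25% to 7.70%), out of 32547 retained cells in the series. They were chosen by their own counts: a cell had 350 to 8000 detected genes, under 20% of its unique molecular identifiers (UMIs, 1 per captured transcript) on mitochondrial genes, at least 5000 UMIs, at least 20 UMIs of Acta2 per 10000 UMIs, and fewer than 3 of the mural genes Rgs5, Notch3, Mcam, Myh11, Cspg4 and Higd1b detected. They were compared with the 2260 Acta2-low cells of the same library and filter, which had fewer than 3 UMIs of Acta2 per 10000. Between the limits lay 2263 intermediate cells. A further 30 cells passed the Acta2 limit but had 3 or more mural genes, and these are called the mural class here. The other 13 filtered cells had 3 or more mural genes and lay below the limit.

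The cells were GFP+ cells sorted from hindlimb skeletal muscle of adult Prx1Cre;mTmG mice on a C57Bl/6 background and read by single-cell RNA sequencing (scRNAseq). In these mice a Cre driven by the Prx1 promoter, active in limb mesenchyme, switches cells and their descendants from membrane Tomato to membrane GFP, and GFP is the label that was sorted for. Cells of another kind were among them, since 31 of the 6086 retained cells of the d3 post-fracture library, 11 of them past the depth filter and none Acta2-high, carried markers of blood cells. There was 1 library, pooled from a pair of mice, for uninjured mice (d0), for d3 and for d5 following a tibial fracture that was not stabilized, and for the same days following polytrauma, in which muscle was injured beside the fracture. The libraries held 5653, 6229, 6915, 2001 and 13641 barcodes and 18247307, 100403837, 103780343, 56084145 and 204474562 UMIs in that order of labels. With 1 library a condition, no difference between conditions was tested. Libraries stood apart in depth and in markers. Col2a1, the main cartilage collagen, was at 1523 CPM (its UMIs scaled to a common library total) in the library labelled d3 post-polytrauma. It was at 0.135 CPM in the library labelled d5 post-fracture and at 79.6 CPM at d5 post-polytrauma. In the Acta2-low cells of the first 2 libraries, Col1a1 was at 23436 and 2766 CPM and Postn at 3981 and 368 CPM. The paper reports chondrocytes at d5 post-fracture, and an exchange of the labels d3 post-polytrauma and d5 post-fracture is suspected. It could not be settled here, so a value given under either label holds for that library and not for its day or injury. None of the tests below compares days or injuries, though the test without d0 leaves out the uninjured library by its label.

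Acta2 encodes smooth muscle actin, which fibroblasts take up into stress fibres when they become myofibroblasts, the contractile and matrix-producing cells of wounds and fibrosis. The same actin, with its partners Tagln, Myl9, Cnn1 and the tropomyosins, is constitutive in pericytes and smooth muscle cells, the mural cells of vessels, which is why a limit on mural genes accompanies the limit on Acta2. In muscle, the fibroblast lineage also holds resting progenitors marked by Pdgfra, Ly6a and Pi16, which are quiet in contractile genes.

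Acta2 ranged from 20.0 to 66.2 UMIs per 10000 in the Acta2-high cells, with a median of 26.4, and from 0 to 3.00 in the Acta2-low cells, with a median of 0.781. These values define the classes and are a description. The 3 members nearest to the limit had 20.01, 20.02 and 20.03 UMIs per 10000 and the 3 cells just outside had 19.94, 19.93 and 19.93. There was no gap at the limit, since 77 cells lay between 20 and 22 and 87 between 18 and 20. Of the 2260 Acta2-low cells 759 (33.6%) had no Acta2 UMI. In the 11 filtered cells with markers of blood cells, which should lack the gene, Acta2 was at 232 CPM, from 41 UMIs in 45.5% of them. This was above the 107 CPM of the Acta2-low cells and far under the 2873 CPM of the Acta2-high cells.

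**Figure D1:**
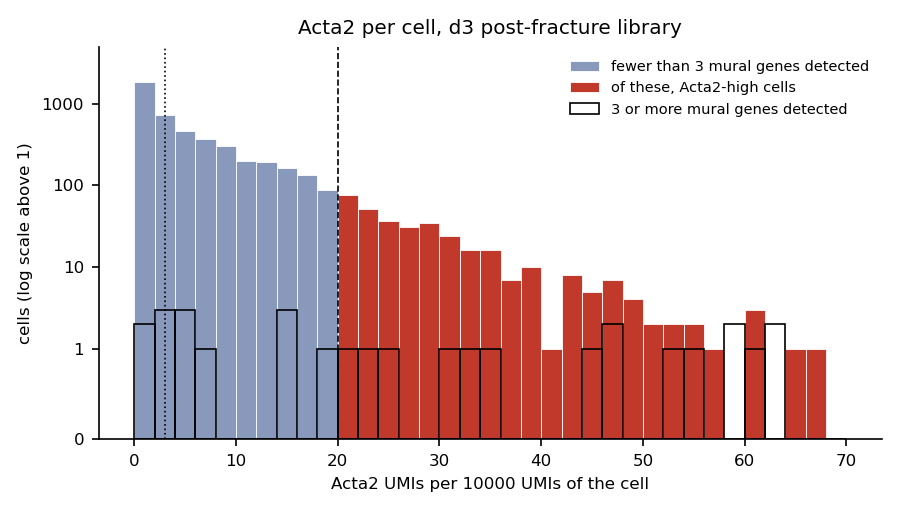
Number of filtered cells (vertical axis, logarithmic above 1) by UMIs of Acta2 per 10000 UMIs of the cell (horizontal axis, bins of 2) in the d3 post-fracture library. Filled bars are cells with fewer than 3 mural genes, red from the limit of 20 (dashed line) on, outlined bars are cells with 3 or more, of which 14 lie beyond 70 and are not drawn, and the dotted line marks the limit of 3. The counts decline without a break across the limit of 20.

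The label of these cells was checked against other genes. Tagln (transgelin, an actin-binding protein), the second gene that names them, was at 403 CPM in the Acta2-high and 35.9 CPM in the Acta2-low cells. In the 11 cells with blood cell markers it was at 39.7 CPM, near the Acta2-low level, but from only 7 UMIs in 18.2% of these cells. After thinning each cell to 5000 UMIs, 67.7% of the Acta2-high cells (exact binomial interval 62.5% to 72.7%) and 11.3% of the Acta2-low cells had a Tagln UMI. Per cell Tagln ran from 0 to 22.2 UMIs per 10000 with a median of 2.78 in the Acta2-high cells, and from 0 to 13.3 with a median of 0 in the Acta2-low cells, so the classes overlapped. The mural genes, which the rule limits, are given as a description: 300 of the 341 cells (88.0%) had none detected, 32 had 1 and 9 had 2, and 91.3% of the Acta2-low cells had none. Summed over all 341 cells, Rgs5 was at 21.8 CPM against 1.90 CPM in the Acta2-low cells, Myh11 at 3.59 and 0.0761 CPM, Notch3 at 2.49 and 0.812 CPM and Mcam at 1.80 and 0.584 CPM, while Cspg4 was at 2.21 and 3.27 CPM. In the 300 cells without any mural gene Acta2 was at 2867 CPM, Tagln at 413 CPM and Myl9 at 538 CPM. The 9 cells with 2 mural genes held 151 of the 158 Rgs5 and 23 of the 26 Myh11 UMIs, with Rgs5 at 1073 CPM, so a few cells with a pericyte gene passed the limit. In the other 332 cells Rgs5 was at 0.987 CPM and Myh11 at 0.423 CPM, from 7 and 3 UMIs. The Acta2-low cells, at 1.90 and 0.0761 CPM, kept their 10 cells with 2 mural genes. Taking out such cells lowers these genes by choice, so the levels of the 332 cells are a description and check nothing. Col1a1, the main fibrillar collagen, was at 5034 CPM in the Acta2-high cells but also at 5544 CPM in the 11 cells with blood cell markers, so its level does not check the label.

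Blood, endothelial and muscle markers were near 0. Of 10 blood cell genes Ptprc, Tyrobp, Laptm5 and Cd52 had no UMI, and the 10 summed to 8.02 CPM in the Acta2-high and 33.1 CPM in the Acta2-low cells, with Lyz2 the most abundant at 2.21 CPM. The 8 endothelial genes summed to 8.43 and 9.36 CPM, with Egfl7 the most abundant at 6.50 CPM and Cldn5 at 0. The 8 muscle genes summed to 3.59 and 1.67 CPM, and Pax7, Myod1, Myf5, Cdh15, Myog and Ckm had no UMI in the Acta2-high cells. The 8 genes of nerve sheath cells summed to 160 and 144 CPM, led by the glucose transporter Slc2a1 at 78.0 and 68.6 CPM, with Sox10 at 0 in the Acta2-high cells. Other mural genes, the rule's 6 left out, summed to 209 CPM in the Acta2-high cells, 288 CPM in the Acta2-low cells and 2141 CPM in the mural class, with Ndufa4l2 the most abundant at 107 CPM in the Acta2-high cells. The Acta2-high cells were deeper, with a median of 20787 against 16654 UMIs and 3706 against 3242 detected genes, and mitochondrial shares were 1.79% and 2.08%. Possible doublets made up 20 of the 341 cells (5.87%) and 5.09% of the Acta2-low cells, while 6 Acta2-high cells carried a barcode that another library also held, of which 4 had less than 10 times the UMIs of that other cell. The part of depth in the values that follow was not tested beyond thinning.

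The contractile genes were higher as a group in the Acta2-high cells. Acta2 aside, all 17 of the 19 list genes with at least 10 UMIs over both classes had a ratio above 1, and the median log2 ratio of CPM was 1.45, where the median over the 13697 genes with at least 10 UMIs was -0.05. Among genes of at least 50 CPM in the higher class, 7 of 10 contractile genes were 2-fold or more higher, where 12 of 2351 such genes, or 0.510%, were. The contrast is that of the choosing rule and the lists were drawn up with results of these data known, so the counts describe the cells and test nothing.

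Actg2, the enteric form of smooth muscle actin, had the largest ratio among genes of at least 50 CPM other than Acta2. It was at 61.4 CPM in the Acta2-high and 3.48 CPM in the Acta2-low cells (log2 ratio 4.14, 95% interval 3.86 to 4.43, covering counting error only, as all intervals here do). After thinning, 15.8% of the Acta2-high cells and 1.24% of the Acta2-low cells had an Actg2 UMI. Without thinning, 36.95% of the Acta2-high cells and 4.07% of the Acta2-low cells had one. A cell without a UMI may still express the gene, so the share of cells that carry it is not settled. Myl9, the regulatory light chain of smooth muscle type myosin, was at 531 and 59.0 CPM (log2 ratio 3.17, 3.09 to 3.24), and 85.3% and 21.5% of thinned cells had a UMI. Tpm2, a tropomyosin that lines the actin filament, was at 1123 and 232 CPM (log2 ratio 2.27, 2.23 to 2.32). Per cell Myl9 had medians of 5.04 and 0 UMIs per 10000, and only 0.708% of the Acta2-low cells lay above the median of the Acta2-high cells. For Tpm2 the medians were 10.5 and 1.06, and 98.2% of the Acta2-high cells lay above the Acta2-low median, so the classes differed across most cells and not in a few. Cnn1 and Cnn2, calponins that bind actin, had log2 ratios of 3.23 and 1.63. Tpm1 followed at 1.45 and Csrp1, a LIM protein of smooth muscle, at 1.29. Cald1, Tpm4 and Myl6, which most cells carry, had smaller ratios of 0.80, 0.66 and 0.56, and Smtn the smallest at 0.25.

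Serum response factor with its actin-regulated cofactors is the known regulator of contractile genes and binds the CArG box. The strict box, with no base off, was searched on both strands in RefSeq promoter windows (GRCm38.p6, 250 bases before to 50 after each start), which matched 17 of the 20 contractile genes, Acta2 included. Windows of 3 genes, Cnn2, Myl6 and Myl9, held the box, where 1.81% of all 27025 genes and 1.63% of all 32851 windows did. The box was not particular to this list. It was held by 5 of 27 genes of the cytoskeleton and adhesion and by 3 of 13 targets and cofactors of serum response factor and YAP. Of 16 fibrillar matrix genes 0 held it. Tagln and Actg2 had no window. The 250 bases before the start are shown for the gene that chose the cells and for the 2 genes past 2-fold that held a box, in lower case with the box in capitals. The windows are at chr19:34255374-34255623 (minus strand) for Acta2, chr10:79988350-79988599 (plus strand) for Cnn2 and chr2:156775214-156775463 (plus strand) for Myl9.
Acta2: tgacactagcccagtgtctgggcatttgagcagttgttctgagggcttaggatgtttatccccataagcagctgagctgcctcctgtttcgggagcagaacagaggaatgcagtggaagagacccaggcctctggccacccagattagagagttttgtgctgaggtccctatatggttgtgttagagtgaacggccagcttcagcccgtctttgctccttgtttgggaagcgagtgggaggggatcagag
Cnn2: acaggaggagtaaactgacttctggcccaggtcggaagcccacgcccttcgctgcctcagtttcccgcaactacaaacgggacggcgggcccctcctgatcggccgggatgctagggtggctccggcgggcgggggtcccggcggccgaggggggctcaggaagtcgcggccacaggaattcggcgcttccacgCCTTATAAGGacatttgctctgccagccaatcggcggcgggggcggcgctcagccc
Myl9: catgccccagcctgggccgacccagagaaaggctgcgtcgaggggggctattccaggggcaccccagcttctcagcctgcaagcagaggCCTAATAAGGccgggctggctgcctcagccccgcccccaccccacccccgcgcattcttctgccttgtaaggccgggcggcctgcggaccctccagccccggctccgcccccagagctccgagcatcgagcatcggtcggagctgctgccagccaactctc
The box began 56 bases before the start of Cnn2 and 161 bases before the start of Myl9, and a match describes letters only. The window of Acta2 held no strict match but 2 stretches exactly 1 base off the box, 84 and 34 bases before the start, where 19.9% of all windows held such a stretch, so the search says nothing of whether the factor binds there.

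Against the mural class the contractile genes were lower in the Acta2-high cells, except Cnn2. Cnn2 was at 431 CPM in the Acta2-high and 376 CPM in the mural class (log2 ratio 0.20, interval -0.05 to 0.45, which spans 0). Acta2 was at 2873 CPM in the Acta2-high and 8687 CPM in the mural class, Tagln at 403 and 2437 CPM, and Des, the muscle intermediate filament, at 19.2 and 556 CPM. The log2 ratios to the mural class were -1.60 for Acta2, -2.60 for Tagln, -3.79 for Actg2 and -4.85 for Des. Mylk, the kinase that starts smooth muscle contraction, was at 41.2 CPM in the Acta2-high and 608 CPM in the mural class. Tpm2 was closer, at 1123 and 2146 CPM. In the other direction Cthrc1, a secreted protein of activated fibroblasts, was at 1326 CPM in the Acta2-high and 277 CPM in the mural class. The mural class was shallow, with a median of 9807 UMIs over 30 cells, and was defined with the rule's own genes.

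Tagln, Myl9 and Cnn1 followed Acta2 in steps across its limits. Tagln was at 35.9 CPM in cells with fewer than 3 Acta2 UMIs per 10000, 97.0 CPM from 3 to 10, 214 CPM from 10 to 20, 328 CPM from 20 to 30 and 563 CPM from 30 on. Myl9 was at 59.0, 151, 290, 448 and 708 CPM in the same order, and Cnn1 at 4.44, 8.57, 17.4, 36.7 and 52.2 CPM. Not every contractile gene did so: Mylk was at 17.1, 17.2, 20.8, 35.5 and 53.5 CPM, level below 10 and higher from 20 on, and Smtn at 20.2, 23.8, 25.9, 20.9 and 30.9 CPM. Pi16, a marker of resting adventitial fibroblasts, made most of its descent in the first step, at 108, 15.6, 11.2, 5.47 and 4.35 CPM. Col1a1 showed no such order, at 5968, 4830, 4776, 4762 and 5617 CPM. Spp1 (osteopontin, a secreted phosphoprotein of wounds and bone) reached its highest level at 427 CPM between 20 and 30 and was at 171 CPM from 30 on. The first 3 bands hold 2260, 1481 and 782 cells and the last 2 hold 231 and 110, and the edge at 30 was set after the values were seen.

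**Figure D2:**
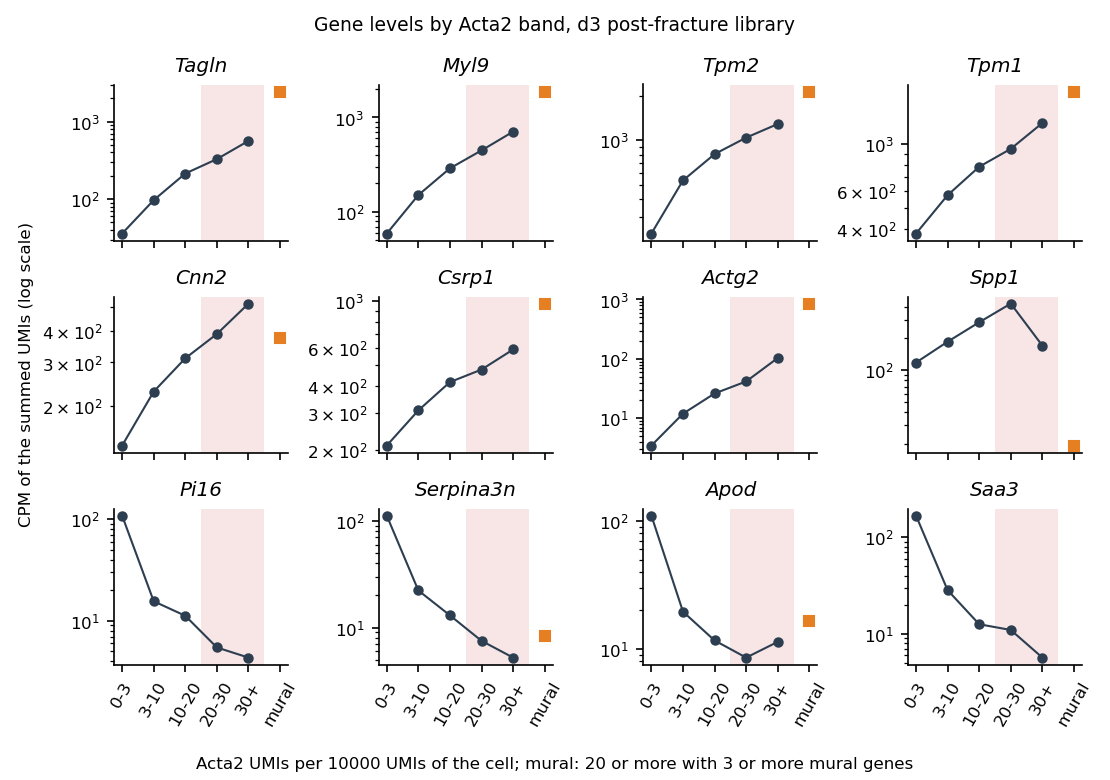
CPM of summed UMIs (vertical axes, logarithmic) of 12 genes in bands of Acta2 UMIs per 10000 (horizontal axis) of the d3 post-fracture library, with the mural class as a square. The shaded bands hold the Acta2-high cells. The contractile genes drawn climb through all 5 bands to levels under those of the mural class, except Cnn2, at 517 CPM in the highest band and 376 CPM in the mural class, while Pi16, Serpina3n, Apod and Saa3 drop most in the first step.

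Among the Acta2-high cells themselves the same genes varied with Acta2. Over the 341 cells and 2218 genes of at least 50 CPM, Tpm2 (Spearman rho 0.31), Myl9 (0.31) and Tagln (0.29) were most like Acta2 in UMIs per 10000. Tpm1, Csrp1, Dstn, Aspn, Myl6, Myl12a and Cnn2 followed with values from 0.25 to 0.19. The cells of a library share its preparation and the correlations are weak, so the order is a description. At the other end Phlda1 (-0.22) and Pdpn, podoplanin of activated stroma (-0.20), ran against Acta2.

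Beyond the contractile list, 5 further genes were 2-fold or more higher. They were Spp1 at 346 and 118 CPM (log2 ratio 1.55), the fatty acid binding protein Fabp5 at 1099 and 456 CPM (1.27), the neuronal type tubulin Tubb3 at 52.7 and 22.7 CPM (1.22), Bok, a member of the Bcl2 family, at 81.8 and 36.6 CPM (1.16), and the actin-severing protein Dstn at 398 and 196 CPM (1.03). Spp1 was uneven, with a UMI in 31.7% of the thinned Acta2-high cells and up to 136 UMIs per 10000 in 1 of them, while the highest Acta2-low cell had 245. Just under 2-fold stood Vcl (vinculin of focal adhesions, 0.96), Ctgf (connective tissue growth factor, 0.93) and the actin-sequestering Tmsb4x (0.92).

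Genes of the cytoskeleton and adhesion were higher by small amounts. Of 29 such genes 26 had a ratio above 1, with a median log2 ratio of 0.48, and of the 23 of at least 50 CPM none reached 2-fold. Among those 23, Vasp (0.86), Myh9 (0.83), Actg1 (0.78), Flna (0.77) and Actb (0.73) followed Vcl. Below that level, Ldb3 had a log2 ratio of 1.45 from 4 and 8 UMIs, and Pxn, paxillin, the lowest of the list at -1.09 from 39 and 453 UMIs. The targets and cofactors of serum response factor and YAP were spread around 0, with a median of 0.03 over 15 genes that took either sign across the processing settings. Ctgf stood at 0.93 while Cyr61, a target of the same factors, was at 308 and 302 CPM (0.03).

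Matrix genes split. Of 24 genes of the fibrillar matrix 5 had a ratio above 1, and 5 were 2-fold or more lower, where 59 of 2351 genes of the level filter, or 2.51%, were. Those 5 were the elastic fibre gene Eln (-1.79), Col14a1 (-1.63) and the small proteoglycans Lum (-1.34), Dcn (-1.32) and Fmod (-1.30). Col1a1 was at 5034 and 5968 CPM (-0.25), Col1a2 at -0.30, Col3a1 at -0.80 and Fn1 at -0.52, so the main fibrillar collagens of the Acta2-high cells were not above those of the Acta2-low cells. In the 11 cells with blood cell markers Col1a1 was at 5544 CPM, between these 2 levels. The part of RNA from other cells in the matrix levels was not tested. Col8a1 (0.53) and Aspn (0.36), an asporin that binds collagen, were the highest. Of 23 genes of collagen modification and secretion 17 had a ratio above 1, with a median of 0.27, led by the lysyl oxidases Loxl3 (0.57) and Loxl2 (0.55) and the prolyl hydroxylase P4ha2 (0.53), while Lox was at -0.19.

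Genes by which activated fibroblasts are known divided evenly around 0, with a median of 0.04 over 17 genes that changed sign across settings. Lrrc15, a membrane protein of TGF-beta-treated fibroblasts, had the largest ratio at 45.6 and 21.1 CPM (1.11). Thbs1 (0.51), Tnc (0.31) and Cthrc1 (0.30) were slightly higher, Postn was at 1124 and 1137 CPM (-0.02), and Fap (-0.61) and Spon1 (-1.26) were lower. The TGF-beta pathway, the main known inducer of Acta2 in fibroblasts, had a median of -0.37 over 22 genes (-0.20 against all other cells), of which 6 had a ratio above 1. The ligands Tgfb1 (0.17), Tgfb2 (0.10) and Tgfb3 (0.08) were near 0, the receptors Tgfbr1 (-0.35), Tgfbr2 (-0.40) and Tgfbr3 (-0.94) lower, and Ltbp4, which stores the ligand in matrix, the lowest at -2.02. Among protease genes the median was -0.47 over 17 genes (-0.10 without the mural limit), from Mmp9 (1.83, 45 UMIs) to Mmp3 (-3.37).

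Pi16, of the progenitor list, had the lowest ratio among the named genes of at least 50 CPM, and Saa3, C3 and Cxcl14, of the inflammatory list, were among the 15 lowest. Pi16 was at 5.11 CPM in the Acta2-high and 108 CPM in the Acta2-low cells (log2 ratio -4.40, -4.91 to -3.94), and 2.05% and 16.4% of thinned cells had a UMI. Saa3, an acute phase protein, was at 9.26 and 168 CPM (-4.18), the protease inhibitor Serpina3n at 6.77 and 112 CPM (-4.05), complement C3 at 8.43 and 111 CPM (-3.72) and the lipocalin Apod at 9.40 and 110 CPM (-3.55). The highest Acta2-low cell had 492 UMIs of Saa3 and 184 of Pi16 per 10000, against 8.95 and 3.00 in the highest Acta2-high cell, and the medians were 0 in both classes. Without thinning, a UMI was found in 45.0% of the Acta2-low cells for C3, 44.5% for Serpina3n and 43.3% for Apod. For Pi16 the share was 25.8% and for Saa3 16.7%. A cell without a UMI may still express these genes. The opioid precursor Penk (-2.95), the growth arrest ligand Gas6 (-2.75), the lipopolysaccharide binding protein Lbp (-2.65), Abi3bp (-2.63), the chemokine Cxcl14 (-2.59), the IGF binding protein Igfbp4 (-2.28), the adhesion molecule Chl1 (-2.27), the cartilage and tendon matrix protein Comp (-2.21), Ifi27l2a (-2.19) and the proteoglycan Prelp (-2.04) completed the 15 lowest.

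By list, 15 of 16 progenitor genes had a ratio below 1, with a median of -0.79 (-1.40 after thinning). Ly6a, the Sca1 antigen, was at 253 and 579 CPM (-1.19), Pdgfra at 27.4 and 63.2 CPM (-1.21) and Clec3b at 0.968 and 46.1 CPM (-5.57), while Thy1 was the exception at 229 and 129 CPM (0.83). Prrx1, the gene whose promoter drives the Cre, was at 122 and 125 CPM. All 20 inflammatory genes had a ratio below 1, with a median of -0.57, and the most abundant differed by small amounts: Ccl2 was at 2482 and 2806 CPM (-0.18), Cxcl1 at 3026 and 4407 CPM (-0.54) and Il6 at 114 and 178 CPM (-0.64). Il11 was at 46.7 and 113 CPM (-1.27). Of 28 growth factor and binding protein genes 7 had a ratio above 1, led by Pdgfa at 54.2 and 29.1 CPM (0.90), while Igf1 was at 167 and 470 CPM (-1.49) and Sfrp1 at 111 and 232 CPM (-1.06). Tendon genes had a median of -1.22 over the 9 with UMIs in both classes, which was -0.037 at an Acta2 limit of 40, with Chad at 0 UMIs and Thbs4 at 99.8 and 284 CPM. Immediate early genes, which dissociation of tissue can raise, were lower in 14 of 15 cases (median -0.44), from Dusp1 (-1.11) to Hspa1a (0.21), and their part in the contrast was not tested. These lower levels were not particular to the Acta2-high cells. In the Acta2-high, intermediate and Acta2-low cells the progenitor genes summed to 1212, 1249 and 2177 CPM. The inflammatory genes summed to 9676, 10207 and 13532 CPM, growth factors to 2544, 2668 and 4596 CPM and immediate early genes to 5171, 5043 and 6680 CPM. The contractile genes without Acta2, at 8164, 5524 and 3646 CPM, were graded.

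**Figure D3:**
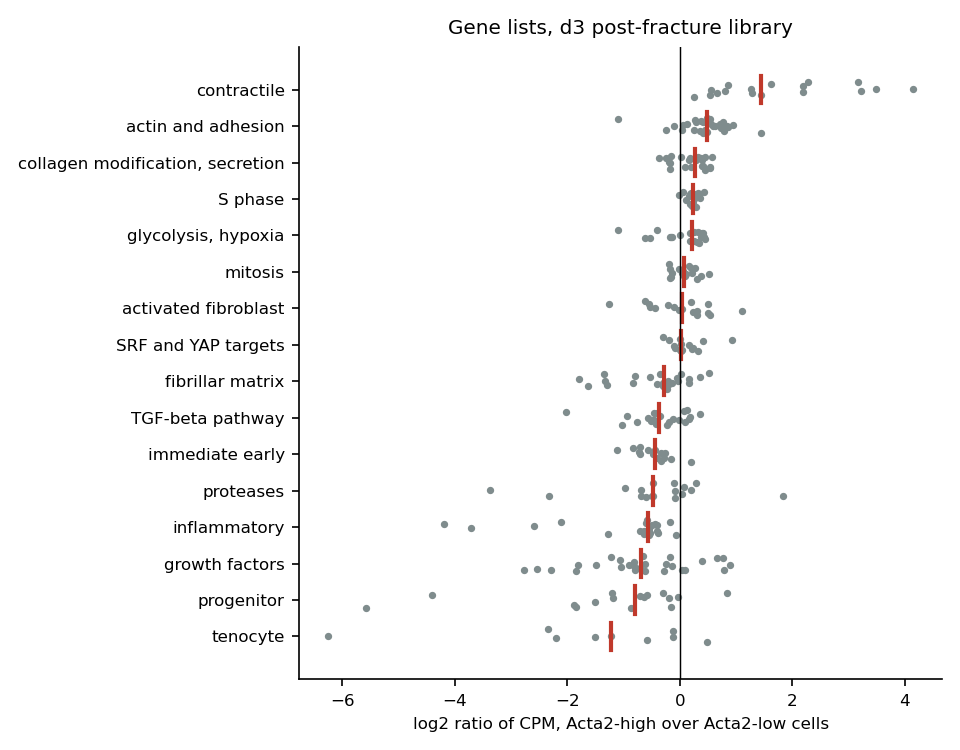
Log2 ratio of CPM, Acta2-high over Acta2-low cells of the d3 post-fracture library (horizontal axis), for the genes (points) of 16 lists with at least 10 UMIs, with the median of each list as a red bar. Acta2 and genes without a UMI in 1 of the classes are not drawn. Contractile genes lie to the right of 0 and inflammatory genes to the left, while SRF and YAP targets and activated fibroblast genes straddle it.

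Genes of glycolysis (median 0.22 over 20) and of DNA synthesis (0.24 over 18) were slightly above the median of all genes, and mitosis genes at 0.08 over 18 took either sign across settings. Eno1 (0.44) and Gapdh (0.37) were higher, and Hk2 (-0.62) and the hypoxia target Adm (-1.09) lower. Counting cells with at least 5 of 18 mitosis genes among 5000 thinned UMIs, 81 of the 341 Acta2-high cells (23.8%, exact binomial interval 19.3% to 28.6%), 20.3% of the Acta2-low and 29.2% of the intermediate cells reached this limit. The limit of 5 was set after the values were seen, and the intervals of the Acta2-high and Acta2-low cells overlap. Basement membrane genes had a median of -0.40 over 14 genes (-0.066 without the mural limit), cartilage genes -0.88 over 8 (-0.40 at an Acta2 limit of 10) and bone genes -0.19 over 6, the genes with UMIs in both classes. The median of the bone genes took either sign across settings, from -0.50 to 1.55. Of the bone genes Spp1 was 2-fold higher, and Ibsp and Bglap2 were at 0 UMIs in the Acta2-high cells. Ribosomal protein genes had a median of -0.06 over 77 genes.

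The Acta2-high cells did not form a cluster of their own when Acta2, the mural genes and the contractile genes were left out. Those are the genes that chose the cells or differed most as a group. Whether the cells separate when they are kept was not tested. In this clustering the 6086 retained cells fell into 10 clusters, and the Acta2-high cells lay in 8 of them. A cluster led by C1qtnf3, Fabp5 and Pdgfrl held 143 of the 341 (41.9%), where it held 15.3% of the Acta2-low cells. A cluster led by Il11, Ass1 and Spp1 held 97 (28.4%) and a cluster of mitosis genes led by Nusap1, Ube2c and Prc1 held 61 (17.9%). The cluster led by Hbb-bs, Saa3 and Hba-a1, with Pi16 and C3 among its leading genes, held 27 Acta2-high cells (7.92%) and 943 Acta2-low cells (41.7%). Only 5 lay with the cluster led by Rgs5, Myh11 and Pcp4l1, which held 28 of the 30 cells of the mural class. In the cluster richest in them among the largest, the Acta2-high cells were 12.7% of 1130 filtered cells, so in every large cluster most cells were not Acta2-high.

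The rule was then applied without change to the 4 libraries that did not choose the genes above. It found 72 of 918 filtered cells at d0 (7.84%), 77 of 5744 in the library labelled d5 post-fracture (1.34%), 47 of 1414 in the library labelled d3 post-polytrauma (3.32%) and 1962 of 10850 at d5 post-polytrauma (18.1%), against 341 of 4907 at d3 post-fracture. The exact binomial intervals ran from 1.06% to 1.67% for the lowest share and from 17.4% to 18.8% for the highest, and cover counting error only. The shares rest on 1 library each and on cells deep enough to pass 5000 UMIs, which left 918 of 5367 retained cells at d0 and 4907 of 6086 at d3 post-fracture. The cells chosen at d0 carried mural genes, though not all genes of the rule were higher in them. In the Acta2-high and Acta2-low cells at d0, Notch3 was at 245 and 4.23 CPM and Mcam at 58.3 and 0.746 CPM. Rgs5 was at 9.32 and 10.7 CPM, Cspg4 at 16.3 and 21.4 CPM, and Higd1b had no UMI in the Acta2-high cells. Of the 72 cells 71 had 1 or 2 mural genes detected, against 41 of 341 at d3 post-fracture, 26.0% in the library labelled d5 post-fracture, 48.9% in the one labelled d3 post-polytrauma and 23.2% at d5 post-polytrauma. The Acta2-low cells of the same libraries gave 24.2% at d0, 8.67%, 12.4%, 47.7% and 17.1% in that order, so in the library labelled d3 post-polytrauma the share was near that of its Acta2-low cells. At d0 the Acta2-high cells' Acta2 was at 11772 CPM and the smooth muscle myosin Myh11 at 2580 CPM, where Acta2 was at 2858 to 3097 CPM and Myh11 at 2.29 to 7.27 CPM in the Acta2-high cells of the other libraries, and their mitochondrial share was 10.0% against 2.32% in the Acta2-low cells.

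The contrast was tested over these 4 libraries with edgeR's quasi-likelihood test on UMIs summed by library and class, with the library as a block and Benjamini-Hochberg adjustment. Acta2 and the 6 mural genes of the rule were in the fit and are left out of all counts. Of 12941 other genes 5 were higher, or 0.0386%, and 66 lower, or 0.510%, in the Acta2-high cells at an adjusted p under 0.05. Leaving out the d0 library, 433 of 13911 genes (3.11%) were higher and 1335 (9.60%) lower, and 5 of the 5 and 64 of the 66 were among them. The calls depended on single libraries: leaving out the one labelled d5 post-fracture or the d5 post-polytrauma library left 0 genes higher and 0 lower by edgeR (1237 and 562 genes at an unadjusted p under 0.05), and leaving out the one labelled d3 post-polytrauma left 1 higher and 0 lower. The libraries are not replicates of a condition, and the test asks which differences between the classes recur over conditions.

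Beside Acta2, which chose the cells, the higher genes were Actg2, Lmod1, Kcnmb1, Pkp2 and Glipr1. Actg2 in the Acta2-high and Acta2-low cells was at 2.33 and 0 CPM at d0, 34.2 and 0.655 CPM in the library labelled d5 post-fracture, 165 and 2.71 CPM in the one labelled d3 post-polytrauma and 76.9 and 3.54 CPM at d5 post-polytrauma. The Acta2-high cells were higher in every one, at d0 by 1 UMI, and edgeR gave a log2 fold change of 5.31 (SE 0.37, adjusted p = 0.0118). Lmod1, leiomodin of smooth muscle (5.69, SE 0.68, adjusted p = 0.0338), and Kcnmb1, a potassium channel subunit of smooth muscle (5.43, SE 0.72, adjusted p = 0.0396), had under 1 CPM in the Acta2-high cells at d3 post-fracture. Pkp2, a desmosome protein, had a log2 fold change of 3.11 and Glipr1 of 2.62.

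Tagln was at 6070 and 40.3 CPM at d0, 581 and 11.7 CPM in the library labelled d5 post-fracture, 1082 and 68.0 CPM in the one labelled d3 post-polytrauma and 1180 and 103 CPM at d5 post-polytrauma. It was higher in the Acta2-high cells of every library, and missed the threshold with all 4 (log2 fold change 5.03, SE 0.74, edgeR adjusted p = 0.0519) but passed it without d0 (4.30, SE 0.51, adjusted p = 0.0174). Myl9 stood alike, at 6399 and 104 CPM at d0, 538 and 27.9, 500 and 50.3, and 566 and 82.1 CPM in the others (4.03, SE 0.60, edgeR adjusted p = 0.0525 with d0, and 3.39, SE 0.23, 1.23e-08 without). Of the 15 genes with the highest ratio at d3 post-fracture, 14 were higher in all 3 injured libraries, the exception being Spp1, and 9 in all 4. Among the 9, the counting intervals at d0 of Actg2 and Cnn2 (0.32) span 0. By edgeR 1 of the 15 was called with d0 and 13 without, all upward, where 0.0386% and 3.11% of all genes were called higher, with Spp1 (0.44, SE 0.21, adjusted p = 0.209) and Tubb3 (1.91, SE 0.51, adjusted p = 0.152) not called. Fabp5 (1.62), Csrp1 (1.79), Ctgf (1.84) and Bok (1.85) were among the 13.

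The 15 lowest genes were all lower in the 3 injured libraries, and 13 in all 4. Among the 13, the counting intervals at d0 of Serpina3n (-0.0077), Igfbp4 (-0.068) and Gas6 (-0.42) span 0. By edgeR 4 were called with d0 and 9 without, all downward, where 0.510% and 9.60% of all genes were called lower. Penk was at 4.66 and 36.3 CPM at d0, 16.0 and 157 CPM in the library labelled d5 post-fracture, 8.82 and 118 CPM in the one labelled d3 post-polytrauma and 3.05 and 42.6 CPM at d5 post-polytrauma, and its log2 fold change was -3.59 (SE 0.24, edgeR adjusted p = 0.0118). Chl1 (-3.92, adjusted p = 0.0338), Lbp (-3.46, adjusted p = 0.0309) and Apod (-3.24, adjusted p = 0.0396) were the others. Pi16 was at 345 and 1809 CPM at d0, 4.36 and 32.2, 1.32 and 160, and 1.17 and 33.4 CPM in the others, lower in every library, with edgeR adjusted p = 0.0889 with d0 and 0.00339 without. Without d0, Saa3, Abi3bp, Cxcl14, Comp, Ifi27l2a and Prelp were not called, and in the library labelled d5 post-fracture the ratios of Comp (-0.03) and Prelp (-0.04) were near 0.

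**Figure D4:**
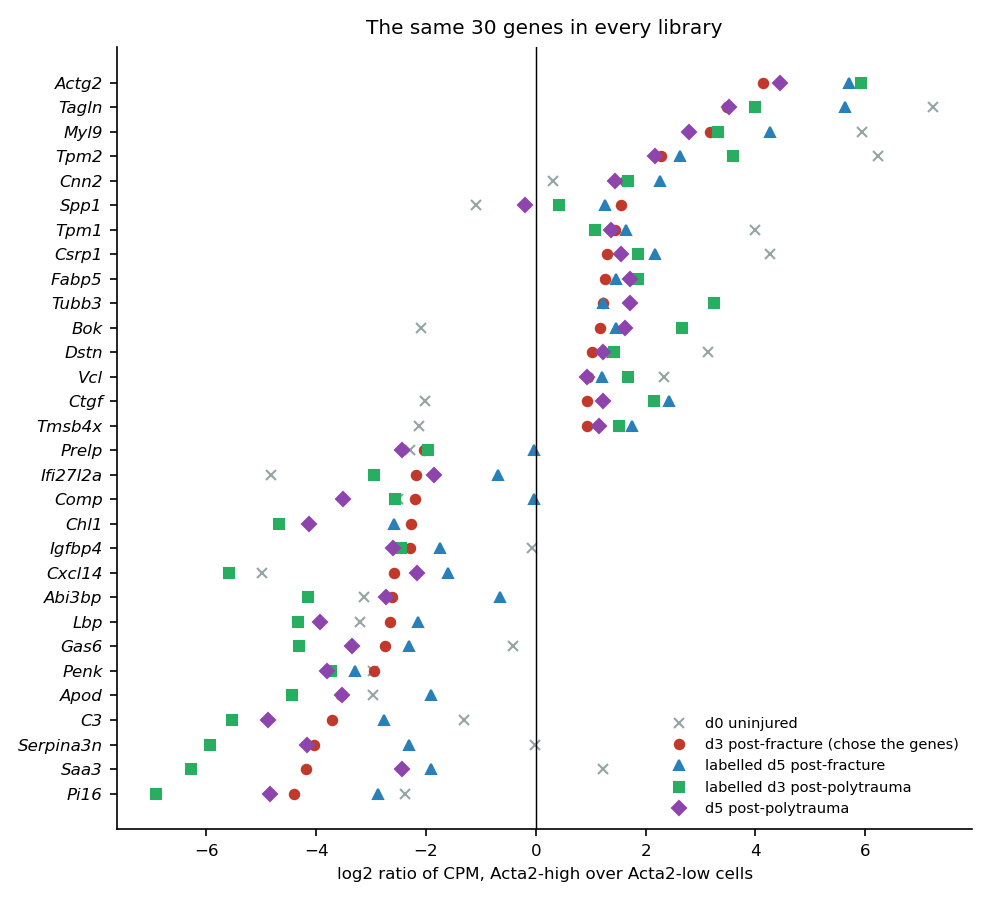
Log2 ratio of CPM, Acta2-high over Acta2-low cells (horizontal axis), of the 15 highest and 15 lowest genes at d3 post-fracture, which chose them, in all 5 libraries (1 symbol each). Ratios without a UMI in a class (Actg2, Fabp5, Tubb3 and Chl1 at d0) are not drawn. The injured libraries lie on the side of d3 post-fracture for 29 of the 30 genes, all but Spp1, and the d0 crosses of Ctgf, Tmsb4x, Bok, Spp1 and Saa3 lie on the other side.

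With all 4 libraries edgeR called 2 of 9 cartilage genes lower, Col9a1 (log2 fold change -3.67, adjusted p = 0.0120) and Hapln1 (-4.70), and 2 of 7 bone genes, Ibsp (-2.99) and Alpl (-3.03), where 0.510% of all genes were called lower. These 4 were under 5 CPM in both classes at d3 post-fracture and, like Pkp2 and Glipr1, were named after their values were seen. The lower genes also included the Wnt inhibitors Sfrp1 (-1.75) and Sfrp2 (-2.00), Bmp4 (-3.70), the collagenase Mmp13 (-3.72), the long pentraxin Ptx3 (-2.34) and Lcn2 (-5.66), the largest. Without d0, where edgeR called 3.11% of all genes higher and 9.60% lower, it called 13 of 18 contractile genes higher and none lower, 15 of 29 cytoskeleton and adhesion genes higher and none lower, and 11 of 16 progenitor genes lower, with Thy1 and Twist2 higher. It called 8 of 20 inflammatory genes and 7 of 15 immediate early genes, Egr1, Fosb and Junb among them, lower and none higher. Of 17 activated fibroblast genes 7 were called higher, Lrrc15, Cthrc1, Tnc and Thbs1 among them, and 3 lower. It called 5 of 23 collagen modification genes and 9 of 18 DNA synthesis genes higher and none lower. Of 22 TGF-beta pathway genes 1 was called higher and 7 lower, and of 29 growth factor genes 3 higher and 12 lower. Of 17 protease genes 7 were called lower and of 9 cartilage genes 6, with none higher. Of 11 mural genes outside the rule it called 4 higher (Aoc3, Kcnmb1, Pdgfrb and Rgs4) and 3 lower (Cox4i2, Steap4 and Vtn). The rule's own mural genes, which helped to choose the cells, went both ways. Their log2 fold changes were 4.07 for Myh11, 1.23 for Rgs5, 1.11 for Mcam, 0.25 for Notch3 and -1.27 for Cspg4. The part of the mural genes and of the immediate early genes, which dissociation of tissue can raise, in the other differences was not tested. Of 24 fibrillar matrix genes, Col6a3 and Col8a1 were called higher and Col14a1, Col3a1, Dcn, Fn1 and Lum lower. Col1a1 had a log2 fold change of -0.0012 (SE 0.15, edgeR adjusted p = 0.998). With all 4 libraries edgeR called 2 contractile genes higher, Actg2 and Lmod1, and 1 of 16 progenitor genes lower, Ly6c1. It called 3 growth factor genes, Bmp4, Sfrp1 and Sfrp2, and 1 protease gene, Mmp13, lower. None was called of the cytoskeleton, inflammatory, immediate early, activated fibroblast, collagen modification, fibrillar matrix, DNA synthesis and TGF-beta pathway lists. In all, edgeR gave 1461 genes an unadjusted p under 0.05 with the 4 libraries.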

How the data were processed

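The 5 libraries of GFP+ muscle cells, 1 per condition, were read by 10x scRNAseq. The authors deposited raw UMI counts per gene and barcode, made with Cell Ranger (version 3.1.0 in the matrix header) on mm10, and their Seurat 3.1.2 filters were not applied to the files. The filters given in the report were applied here. With 1 library per condition, classes within the d3 post-fracture library were described by summed counts as CPM, with exact intervals that cover counting error only. Shares of cells were taken after thinning each cell to 5000 UMIs. Ratios above 2-fold were counted over genes of at least 50 CPM in the higher class.

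In the other 4 libraries, counts were summed by library and class (at least 30 cells) and tested with edgeR 4.0.16 (R 4.3.3), library as block, Benjamini-Hochberg adjustment. Since each library gives both classes, the pairing is that of cells from the same library. On data simulated for this contrast with 13148 genes, 51 of 100 genes changed 2-fold and 96 of 100 changed 4-fold were called, with 9 unchanged genes called. The simulation had a dispersion of 0.05, the same fold in every library and changed genes taken only from those with many UMIs. In the data the ratios differed between libraries, for Tagln from a log2 ratio of 7.24 at d0 to 3.52 at d5 post-polytrauma. The simulated shares therefore do not give the power of the test on the data. DESeq2 1.42.0, another scaling, filters, limits and leaving out each library were alternatives. Possible doublets were the highest Scrublet scores, with a share that grew with the number of cells, because the automatic threshold marked 1 cell in the d3 post-fracture library, and they were kept. Clusters were made with scanpy 1.11.5 (Leiden, resolution 0.5).

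Named genes were Acta2, Tagln, the 6 mural genes, the 15 highest and 15 lowest ratios among genes also found in 10% of thinned cells, and members of each list by extreme ratio or level; further genes were named after their values were seen. The Acta2-high cells, the lists and their genes were chosen with earlier results of these data known.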

Additional observations from a re-analysis of the deposited data

Results flagged for a closer look

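For 7 of the genes given by library, the Acta2-high cells at d0 stood on the other side of the Acta2-low cells than in all 4 injured libraries, a difference that was not tested. Il6 was at 1326 CPM in the Acta2-high and 215.5 CPM in the Acta2-low cells at d0 (log2 ratio 2.622, from 569 and 867 UMIs), where the injured libraries gave -3.43 to -0.64. Ctgf was at 25.6 CPM in the Acta2-high and 104 CPM in the Acta2-low cells at d0 (log2 ratio -2.018), where the injured libraries gave 0.93 to 2.42. Tmsb4x was at 914 and 3981 CPM at d0 (-2.123), against 0.92 to 1.76. Fabp5 had no UMI in the Acta2-high cells at d0 and was at 12.7 CPM in the Acta2-low cells, which puts the log2 ratio at -0.858 with the floor of 3 UMIs per class, against 1.27 to 1.87. Tubb3 had no UMI either, against 14.9 CPM (-1.093 at that floor, 1.22 to 3.25 in the injured libraries). For the other 2 the counting interval at d0 spans 0, so their side there is not settled: Bok rested on 1 and 40 UMIs (-2.092, interval -7.43 to 0.47, 1.16 to 2.67 in the injured libraries) and Saa3 on 2 and 8 UMIs (1.229, interval -2.04 to 3.55, -6.28 to -1.90 in the injured libraries). Of the 72 Acta2-high cells at d0, 71 had 1 or 2 mural genes detected, Myh11 was at 2580 CPM and the mitochondrial share was 10.0%. The part of these values in the difference was not tested.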

How the results depend on the processing

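In the d3 post-fracture library the 341 Acta2-high cells became 1123 (22.9% of filtered cells) at a limit of 10 Acta2 UMIs per 10000 and 37 (0.754%) at 40, and the share was 6.11% with no mural gene allowed. The 12 genes 2-fold higher became 27 at the limit of 40, 31 with a level filter of 10 CPM and 5 against all other cells, and the 59 lower ones 97, 171 and 19, with 95 after thinning and 21 at 200 CPM. The contractile median of 1.45 was 1.13 at the limit of 10 and against all other cells, 1.79 at 40, 2.16 without the mural limit, 1.90 from 2000 UMIs on and 1.75 after thinning. The fibrillar matrix median was -0.039 at 40 and -0.10 against all other cells, and the endothelial median turned to 0.12 at 40. Over the settings the medians ran from -1.40 to -0.65 for progenitor, -1.08 to -0.31 for inflammatory, -0.94 to -0.36 for growth factor, -0.61 to -0.22 for immediate early and -0.47 to -0.20 for TGF-beta pathway genes, and from 0.31 to 0.54 for cytoskeleton and adhesion, 0.11 to 0.40 for glycolysis and 0.021 to 0.32 for DNA synthesis genes. The causes were not tested.

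In the other libraries edgeR's 5 higher and 66 lower genes became 134 and 361 with DESeq2, 3 and 27 with DESeq2 size factors, 26 and 334 without a filter on low counts, and 0 and 0 without the library as a block, which removes the pairing of the classes (695 genes at an unadjusted p under 0.05). Leaving out 1 library gave 0 to 433 higher and 0 to 1335 lower. With no mural gene detected and without d0, a setting chosen after seeing the data, it called 378 and 1339. The log2 fold change of Spp1 ranged from -0.017, without the library labelled d5 post-fracture, to 0.556, without d5 post-polytrauma. Of the named genes there, 274 values over the alternatives kept their call, 63 became and 21 ceased to be called, and 1, that of Spp1, changed direction. Each condition had 1 library, d0 was shallow, and cells under 5000 UMIs were not described.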
